A study of Homo sapiens with 9 samples.

Results

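Cadherins are surface proteins that hold cells together through calcium-dependent binding of their outer domains, and the protocadherins are their largest related family. The genes described here are the 94 of 61544 listed genes that carry a protein-coding category and whose symbols are CDH, CDHR or PCDH followed by a number, with the lettered PCDHA, PCDHB and PCDHG genes included. They comprise 5 type I and 13 type II classical cadherins, 10 other cadherins, 10 delta protocadherins, 3 other single protocadherins, and 15 PCDHA, 16 PCDHB and 22 PCDHG genes, which stand in tandem arrays on chromosome 5. RNA was sequenced from 9 samples of HMC3, a line of human microglia made immortal by the SV40 large T antigen, after 6 days of treatment, with 3 libraries per group. SLO was a mixture of 10 µM SBI-0206965, which inhibits ULK1, a kinase that starts autophagy, 1 µM Lopinavir, which blocks Lamin A maturation, and 1 µM O-151, directed against the DNA glycosylase OGG1. SLO 1/2 contained the same compounds at 5, 0.5 and 0.5 µM, and VEH was their solvent DMSO. All groups share the same cell line and its SV40 antigen, and the labels do not say whether the 3 libraries of a group came from separate cultures, so p-values measure the spread between these libraries, which may be technical.

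Classical cadherins bind the like molecule on a neighbouring cell and are anchored to actin inside the cell by catenins. Type I members such as N-cadherin are named for the tissues in which they were found, and type II members such as CDH6 and CDH8 are best known from the developing nervous system and kidney. Delta protocadherins are encoded by single genes spread over the genome and act in cell sorting and axon guidance. The clustered protocadherins work differently: in a neuron a few promoters of the array are chosen, each variable exon of the PCDHA and PCDHG genes is spliced to constant exons shared by its array, and the resulting set of proteins gives the cell an identity by which its branches avoid each other.

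Gene counts summed to 14834295 to 19674841 reads per library, of which the cadherin and protocadherin genes took 0.0418% to 0.0438% in VEH, 0.0603% to 0.0620% in SLO 1/2 and 0.0607% to 0.0630% in SLO. Replicate libraries always differed by more than counting error, with a chi-square of 1.77 to 4.01 times its degrees of freedom. The label of a microglial line was only partly borne out by 12 microglia markers, since 10 of them had a mean TPM (a level scaled to library size and gene length) below 1 in VEH and 4, P2RY12, CX3CR1, SPI1 and TYROBP, were at 0 there. In libraries of whole cultures a smaller number of cells of a kind and less RNA per cell cannot be told apart.

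Most of the family was silent or nearly so. Of the 94 genes, 84 had at least 1 read in some library, 32 passed the expression filter and could be tested, 22 had at least 10 counts in every library, and 21 reached 1 TPM in every library of a group. Another 10 had no read in any library, among them CDH7, CDH9, CDH19, PCDH20, PCDH11X, PCDHA4, PCDHA5, PCDHA7 and PCDHA8; a count of 0 allows up to 3 reads in a library. The classes differed in how many of their genes were expressed, with 3 of 5 type I, 5 of 13 type II, 3 of 10 other cadherins, 5 of 10 delta protocadherins, 0 of 3 other single protocadherins, 1 of 15 PCDHA, 5 of 16 PCDHB and 10 of 22 PCDHG genes tested. In VEH, 26 of the 32 passed the filter's cutoff of 0.608 CPM (reads scaled to library size) in all 3 libraries. CDH3, CDH8, CDH18 and PCDH1 did so only in SLO 1/2 and SLO, PCDHA3 in 1 treated group, and PCDHB12 in no whole group.

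Level in VEH was concentrated in 5 genes. CDH2, N-cadherin, led with 107.8 ± 6.45 TPM (SD, n = 3), followed by the C-type gamma protocadherin PCDHGC3 with 77.1 ± 3.37, the type II cadherin CDH24 with 31.2 ± 2.63, CDH4 (R-cadherin) with 18.95 ± 0.251 and CDH13 (T-cadherin, held in the membrane by a lipid anchor) with 15.3 ± 0.520. The ranges of these neighbours did not overlap in VEH, and the next gene, PCDHGA11, was at 8.20 ± 0.374 TPM. CDH2 took 34.95% to 40.83% of the summed TPM of all 94 genes in any library. The deposited TPM divide counts by the length of all exons of a gene, whereas exons shared by the genes of an array give reads that belong to no single gene. Of the exon bases of PCDHGC3, 59.9% overlap no other gene, and per kilobase of those bases its level in VEH was 27.4 CPM against 22.9 for CDH2, so that the order of the leading pair turned on the length used. In SLO the same measure was 26.3 for PCDHGC3 and 33.3 for CDH2.

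In SLO, 13 of the 32 tested genes rose and 7 fell against VEH, in edgeR's quasi-likelihood test with Benjamini-Hochberg adjustment over 14727 genes. The share called was 62.5% and that among all tested genes 64.9% (32.9% up and 32.1% down), so the number of calls did not set the family apart. In SLO 1/2, 15 rose and 6 fell, 65.6% against 52.0% of all tested genes (26.7% up and 25.3% down). For 19 genes in SLO and 21 in SLO 1/2 the 3 treated values lay wholly above or below the 3 VEH values, which held for 66.7% and 58.3% of all tested genes. Rises of more than 1 on the log2 scale were seen for 10 genes in SLO and 9 in SLO 1/2 (9.61% and 6.37% of all tested genes), and falls of that size for 3 and 1 (2.20% and 0.502%). The comparisons share the VEH libraries.

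All 5 tested type II cadherins and all 5 tested delta protocadherins rose in SLO, as they did in SLO 1/2, with median log2 fold changes of 2.30 and 2.31 in SLO and 2.00 and 1.63 in SLO 1/2, where the median of all tested genes was 0.01 and 0.02. Of the 16 tested clustered genes none rose and 4 fell in SLO, and 1 rose and 5 fell in SLO 1/2, with medians of -0.33 and -0.47. Counting only genes that passed the cutoff in every VEH library, 4 of 5 classical cadherins rose and 1 fell at either dose, all 4 delta protocadherins rose at either dose, and of 14 clustered genes 4 fell in SLO while 1 rose and 5 fell in SLO 1/2. The 6 genes left out of that count include 4 that were tested because they were higher with treatment, so counts that include them lean upwards. Asking for a pass in VEH leans the other way. PCDHGA6, PCDHGA8, PCDHGB2 and PCDHGB7 passed in all libraries of VEH but of no treated group. The 32 changes are shown in the plot of log2 fold changes by class.

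**Figure D1:**
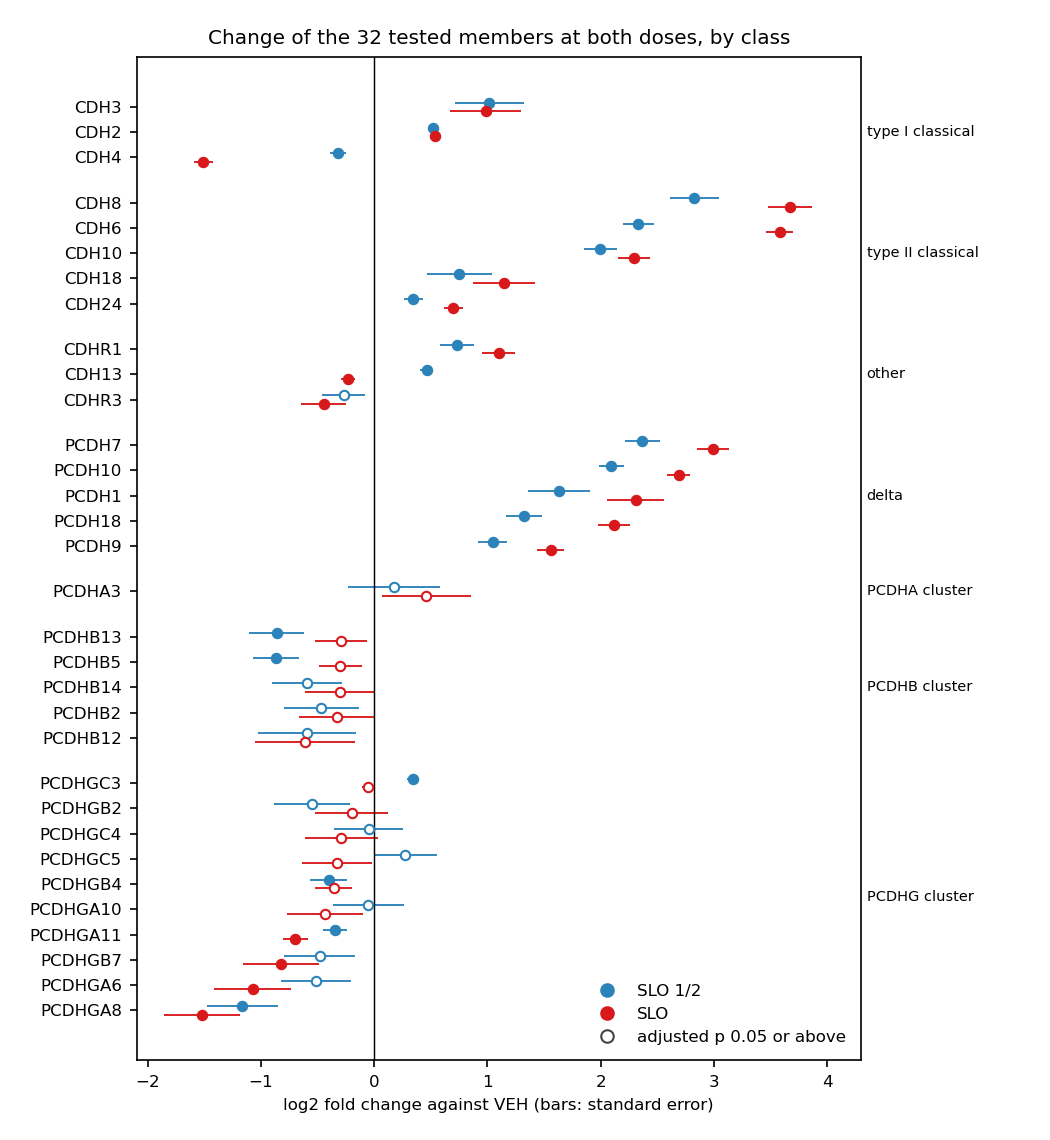
Log2 fold change against VEH (x axis) of the 32 tested genes (y axis, grouped by class) in SLO 1/2 (blue) and SLO (red), with bars for the standard error and open points for an adjusted p of 0.05 or above. Type II and delta genes lie to the right at both doses, up to 3.67 for CDH8, and most PCDHB and PCDHG genes lie left of 0, down to -1.52 for PCDHGA8. CDH8 passed the filter's cutoff as a whole group only with treatment, and PCDHGA8 only in VEH.

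Type I classical cadherins. CDH2, the main adhesion molecule of mesenchymal cells, stood at 186.5, 207.9 and 195.5 CPM in the VEH libraries, 275.5, 284.5 and 282.8 in SLO 1/2 and 292.8, 269.6 and 294.4 in SLO. Every treated library was above every VEH library, while the doses overlapped. The log2 fold change was 0.54 ± 0.04 (SE) in SLO (adjusted p = 1.01e-11, edgeR) and 0.51 ± 0.04 in SLO 1/2 (adjusted p = 7.67e-11), and between doses it was 0.02 ± 0.04 (adjusted p = 0.698). CDH4, the closest relative of N-cadherin, went the other way and in steps. It was at 30.9, 29.7 and 30.2 CPM in VEH, 23.8, 24.6 and 24.4 in SLO 1/2 and 9.14, 10.7 and 12.2 in SLO, with no overlap between any groups. CDH4 fell by 1.51 on the log2 scale in SLO (SE 0.08, adjusted p = 1.21e-15) and by 0.32 in SLO 1/2 (SE 0.07, adjusted p = 0.000374), a difference between doses of -1.19 ± 0.08 (adjusted p = 4.07e-12) and the only fall of more than 1 between doses among the 32 genes (1.08% of all tested genes).

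CDH3, the P-cadherin of basal epithelia, was low, at 0.698, 0.460 and 0.522 CPM in VEH, 1.14, 1.14 and 1.14 in SLO 1/2 and 1.15, 1.00 and 1.197 in SLO. It was higher in all 6 treated libraries, with log2 fold changes of 0.98 ± 0.31 in SLO and 1.02 ± 0.31 in SLO 1/2 (adjusted p = 0.00686 and 0.00622). CDH1, the epithelial E-cadherin, was below the filter, and its counts were 1, 1 and 0 in VEH, 4, 3 and 6 in SLO 1/2 and 11, 13 and 9 in SLO. The groups did not overlap, at a depth of no more than 13 reads a library. The muscle cadherin CDH15 stayed between 2 and 7 counts in every library. Of 10 epithelial markers 5 were tested, of which 3 rose and 2 fell in SLO, and their summed TPM was 485.7 to 543.2 in VEH, 500.7 to 504.6 in SLO 1/2 and 344.2 to 359.7 in SLO. KRT18 made up most of that sum, with a mean TPM of 489.5 in VEH and 330.5 in SLO, and fell together with ESRP1, while KRT8, CLDN4 and ELF3 rose. For 12 fibroblast and mesenchymal markers it was 8818 to 9879 in VEH, 7884 to 8296 in SLO 1/2 and 7079 to 7336 in SLO, with 4 of 8 tested up and 3 down in SLO. Most of this sum was fibronectin, FN1, which fell from a mean TPM of 6077 in VEH to 3301 in SLO. PDGFRB and VIM also fell, whereas the collagens COL1A1, COL1A2 and COL5A1 and the surface protein THY1 rose. Of all tested genes, 32.9% rose and 32.1% fell in SLO. The part of these markers in the changes of type I cadherins was not tested.

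Type II classical cadherins. CDH6, first described in kidney and fetal tissue, had the largest increase in CPM of the class. Its libraries were at 1.97, 2.69 and 2.56 CPM in VEH, 11.1, 12.2 and 13.2 in SLO 1/2 and 29.1, 26.5 and 31.5 in SLO. The 3 groups were fully separate, with a log2 fold change of 3.58 ± 0.12 in SLO (adjusted p = 1.33e-20) and 2.33 ± 0.14 in SLO 1/2 (adjusted p = 2.19e-14). The step from SLO 1/2 to SLO, 1.25 ± 0.09 (adjusted p = 2.27e-12), was the only rise between doses above 1 on the log2 scale among the 32 genes (1.48% of all tested genes). CDH8, a cadherin of brain circuits, was at 0.889, 0.985 and 0.522 CPM in VEH, 5.11, 5.83 and 5.81 in SLO 1/2 and 8.29, 10.83 and 10.97 in SLO. Its log2 fold changes were 3.67 ± 0.20 in SLO (adjusted p = 1.02e-15) and 2.83 ± 0.22 in SLO 1/2 (adjusted p = 1.17e-11), and 0.84 ± 0.13 between doses (adjusted p = 6.14e-06).

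CDH10, a neural cadherin that lies on chromosome 5 (GRCh38, 24487100 to 24644978), is shown with its promoter because most of its rise was already present at the lower dose. It stood at 2.10, 2.23 and 1.83 CPM in VEH, 8.57, 7.72 and 8.15 in SLO 1/2 and 10.9, 9.77 and 9.38 in SLO. Treated libraries were all above VEH, by a log2 fold change of 2.30 ± 0.14 in SLO (adjusted p = 2.37e-14) and 2.00 ± 0.15 in SLO 1/2 (adjusted p = 3.29e-12), whereas the doses differed by 0.30 ± 0.11 (adjusted p = 0.0259). The 250 bases before its start in RefSeq (GRCh38.p14, chr5:24644979-24645228, minus strand, written 5′ to 3′ along the gene) are as follows, with CG dinucleotides in capitals.
CDH10: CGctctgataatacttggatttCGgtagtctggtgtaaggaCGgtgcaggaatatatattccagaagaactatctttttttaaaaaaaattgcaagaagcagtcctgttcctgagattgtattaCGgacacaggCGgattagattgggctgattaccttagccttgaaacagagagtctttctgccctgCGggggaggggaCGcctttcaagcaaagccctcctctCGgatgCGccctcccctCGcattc

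CDH24 was the most abundant type II gene, and its change was the smallest of the class. Its values were 23.8, 27.2 and 23.6 CPM in VEH, 27.8, 36.4 and 30.1 in SLO 1/2 and 41.0, 42.7 and 36.8 in SLO. No groups overlapped, and the log2 fold change was 0.70 ± 0.08 in SLO (adjusted p = 1.25e-08) and 0.34 ± 0.08 in SLO 1/2 (adjusted p = 0.000950). CDH18, another neural member, was at 0.571, 0.985 and 0.783 CPM in VEH, 1.14, 1.43 and 1.38 in SLO 1/2 and 1.45, 1.77 and 2.00 in SLO. It rose by 1.15 ± 0.27 in SLO (adjusted p = 0.000587) and 0.75 ± 0.29 in SLO 1/2 (adjusted p = 0.0298), the latter a call that was lost without either VEH 1, VEH 3, SLO 1/2 2 or SLO 1/2 3. Without CDH24 the summed CPM of the class was 6.25 ± 0.735 in VEH, 27.9 ± 1.22 in SLO 1/2 and 51.4 ± 2.50 in SLO, 4.46 and 8.22 times VEH. With CDH24 the ratios were 1.91 and 2.95.

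The type II genes below the filter included CDH5, the VE-cadherin of blood vessels, with 1, 1 and 5 counts in VEH, 10, 6 and 8 in SLO 1/2 and 9, 6 and 2 in SLO. CDH11, the osteoblast cadherin of many mesenchymal cells, had 0 counts in all VEH libraries, 3, 2 and 1 in SLO 1/2 and 3, 1 and 4 in SLO. CDH12, CDH20 and CDH22 had at most 2 counts in any library. Endothelial markers moved at the same time. Of 8, 5 were tested and 3 rose and 1 fell in SLO, and their summed TPM was 2.64 to 2.92 in VEH, 6.16 to 6.88 in SLO 1/2 and 6.86 to 8.67 in SLO, with PECAM1 at 0 in VEH. Neuron markers likewise went from 3.58 to 4.25 summed TPM in VEH to 5.64 to 5.79 in SLO 1/2 and 7.277 to 7.496 in SLO, with 3 of 4 tested markers up, while STMN2 and ELAVL4 were at 0 throughout. Of all tested genes, 32.9% rose and 32.1% fell in SLO. The part of these cell types in the changes of type II cadherins was not tested.

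Other cadherins. CDH13 changed in opposite directions at the doses. Its libraries stood at 35.6, 34.7 and 37.0 CPM in VEH, 51.6, 48.1 and 48.5 in SLO 1/2 and 29.2, 29.5 and 33.0 in SLO. All SLO 1/2 libraries were above and all SLO libraries below VEH, and the log2 fold change was 0.46 ± 0.06 in SLO 1/2 (adjusted p = 1.04e-07) and -0.23 ± 0.06 in SLO (adjusted p = 0.00195). The difference between doses was -0.70 ± 0.06 (adjusted p = 1.78e-10). CDHR1, a protein of photoreceptor outer segments, was at 2.92, 3.54 and 2.87 CPM in VEH, 5.73, 4.86 and 4.85 in SLO 1/2 and 6.36, 6.47 and 7.11 in SLO. CDHR1 rose by 1.10 ± 0.15 in SLO and 0.73 ± 0.15 in SLO 1/2 (adjusted p = 1.39e-07 and 0.000160). CDHR3, an airway protein known as the receptor of rhinovirus C, had a log2 fold change of -0.45 ± 0.20 in SLO (adjusted p = 0.0492) with overlapping groups, and was not called without VEH 1, VEH 3, SLO 1 or SLO 3, nor by DESeq2 or limma, with library size only, without the filter or with the 2 groups alone. The other 7 genes of the class, among them CDH23 of the inner ear and the gut proteins CDHR2, CDHR5 and CDH17, had no more than 8 counts in a library.

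Delta protocadherins. The summed level of the class was 12.6 ± 0.966 CPM in VEH, 41.8 ± 1.18 in SLO 1/2 and 64.2 ± 1.17 in SLO, 3.33 and 5.10 times VEH. Each of the 5 tested genes was higher in SLO than in SLO 1/2 and higher in SLO 1/2 than in VEH. Their libraries did not overlap, and all 15 comparisons were called. These comparisons share libraries, and PCDH1 passed the cutoff as a whole group only with treatment. Of all tested genes, 64.9% were called in SLO, 52.0% in SLO 1/2 and 41.1% between the doses. In the same order, 66.7%, 58.3% and 51.0% of all tested genes had no overlap. Between the doses, PCDH1 and PCDH9 were not called by limma on log2(TPM + 1) without a filter. PCDH10, a protein that recruits the WAVE actin regulators, was at 3.75, 3.87 and 3.34 CPM in VEH, 16.2, 15.1 and 15.3 in SLO 1/2 and 24.7, 21.7 and 24.1 in SLO. Its log2 fold change was 2.69 ± 0.10 in SLO and 2.09 ± 0.11 in SLO 1/2 (adjusted p = 5.42e-19 and 1.89e-15), and 0.59 ± 0.08 between doses (adjusted p = 4.98e-07). PCDH7, a delta-1 member, was the most changed of the class, at 1.84, 2.17 and 1.93 CPM in VEH, 10.1, 10.3 and 10.2 in SLO 1/2 and 15.2, 18.4 and 13.6 in SLO. The log2 fold change of PCDH7 was 2.99 ± 0.14 in SLO and 2.37 ± 0.15 in SLO 1/2 (adjusted p = 5.20e-17 and 1.76e-13), with 0.62 ± 0.10 between doses (adjusted p = 1.25e-05).

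PCDH18, a delta-2 member, was at 2.41, 2.56 and 1.99 CPM in VEH, 6.30, 5.03 and 5.93 in SLO 1/2 and 9.75, 10.3 and 9.91 in SLO. It rose by 2.12 ± 0.14 in SLO and 1.32 ± 0.16 in SLO 1/2 (adjusted p = 1.58e-13 and 4.12e-08), the doses being 0.80 ± 0.12 apart (adjusted p = 3.20e-06). PCDH9, expressed widely in brain, was at 3.94, 4.07 and 3.45 CPM in VEH, 7.95, 8.18 and 7.37 in SLO 1/2 and 10.9, 11.1 and 11.7 in SLO, a log2 fold change of 1.56 ± 0.12 and 1.04 ± 0.13 in SLO and SLO 1/2 (adjusted p = 2.20e-12 and 5.24e-08). PCDH1, the only delta member common in epithelia of the airway, was at 0.445, 0.591 and 0.783 CPM in VEH, 1.99, 2.06 and 1.74 in SLO 1/2 and 3.51, 2.77 and 2.99 in SLO. Its log2 fold changes were 2.31 ± 0.25 and 1.63 ± 0.27 (adjusted p = 3.75e-09 and 1.18e-05). Below the filter, PCDH17 had 1, 3 and 1 counts in VEH, 8, 6 and 4 in SLO 1/2 and 8, 10 and 7 in SLO, so its treated libraries also lay above VEH, while PCDH19 and PCDH8 had at most 6 counts in a library. Of the other single protocadherins PCDH12, a protein of vessels and placenta, had the highest TPM, with counts of 1, 0 and 1 in VEH, 6, 1 and 2 in SLO 1/2 and 2, 3 and 3 in SLO.

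The promoters of PCDH7 and PCDH18 begin exactly at the deposited 5′ ends of these genes, and are shown as a pair that rose together. Both are the 250 bases before the start (RefSeq, GRCh38.p14, chr4:30720119-30720368, plus strand, and chr4:137532495-137532744, minus strand), with CG dinucleotides in capitals, of which they hold 10 and 8 as against 10 in the stretch of CDH10.
PCDH7: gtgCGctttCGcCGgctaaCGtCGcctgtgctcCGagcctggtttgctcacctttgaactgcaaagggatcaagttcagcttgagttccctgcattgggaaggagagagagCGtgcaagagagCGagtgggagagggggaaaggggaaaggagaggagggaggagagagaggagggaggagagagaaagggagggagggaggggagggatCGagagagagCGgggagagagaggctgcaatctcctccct
PCDH18: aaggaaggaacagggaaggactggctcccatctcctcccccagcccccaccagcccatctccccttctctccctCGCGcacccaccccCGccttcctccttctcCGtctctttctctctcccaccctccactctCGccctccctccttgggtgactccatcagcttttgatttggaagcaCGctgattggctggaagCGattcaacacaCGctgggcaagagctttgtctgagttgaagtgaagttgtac
The stretch of PCDH7 is rich in purines and that of PCDH18 in pyrimidines. None of the 3 stretches printed holds CACCTG, the letters bound by the ZEB and SNAIL factors, on either strand. Over 300-base promoters CACCTG was found in 1 of the 9 genes that rose in SLO and had an entry (PCDH1, whose entry lies 9619 bases from the deposited 5′ end). Of 6 genes with an entry that fell it was found in 2, PCDHGA11 and CDH4, the CDH4 entry lying 247160 bases from the deposited 5′ end. It was found in 7 of 74 members (9.46%) and in 20.6% of the 35116 promoters of the table.

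**Figure D2:**
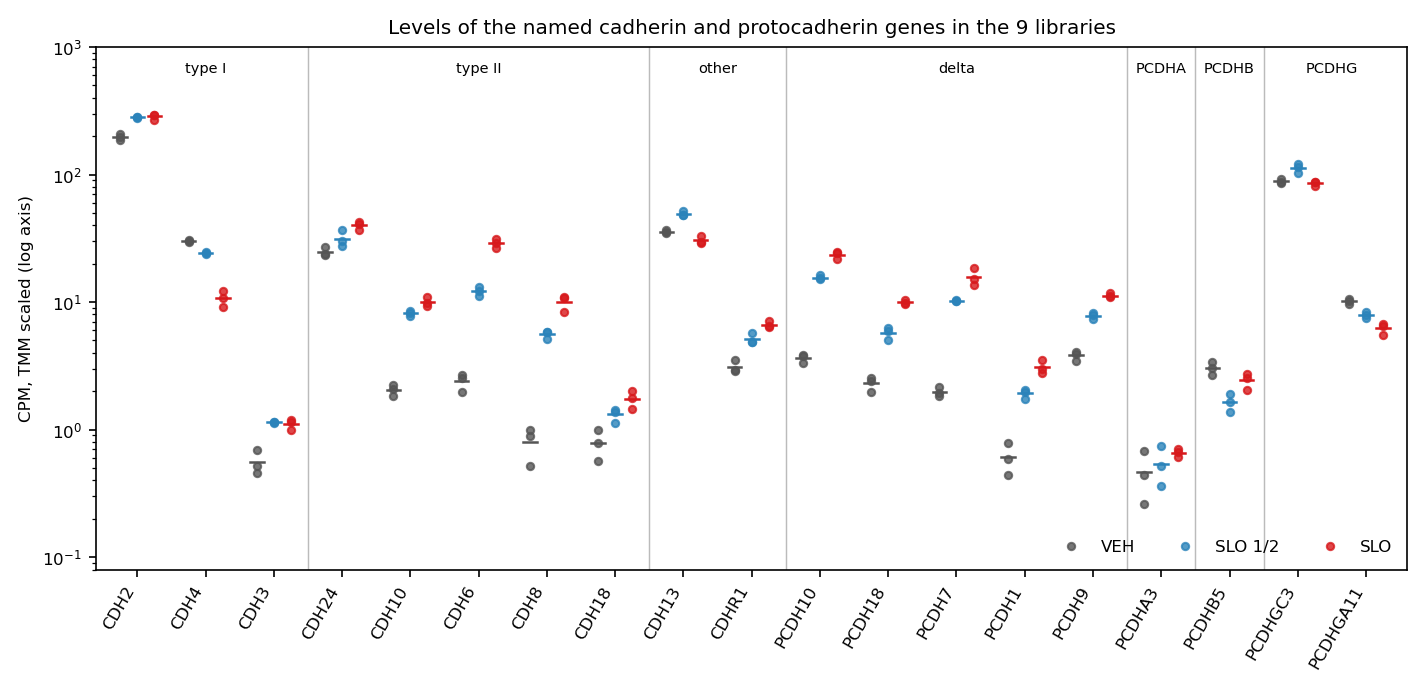
CPM of 19 named genes (y axis, log scale) in each of the 9 libraries, with VEH in grey, SLO 1/2 in blue and SLO in red, a short line at each mean, and classes divided by grey lines. Delta genes step up from VEH to SLO 1/2 to SLO, CDH4 and PCDHGA11 step down, and CDH13 and PCDHGC3 are highest in SLO 1/2.

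Clustered protocadherins. The variable exons lie in the order PCDHA, PCDHB and PCDHG over chromosome 5, from the start of PCDHA1 at 140786136 to the common end of the PCDHG genes near 141512977 (GRCh38). In front of most of them stands a short element known as the conserved sequence element, with a CGCT core, near which CTCF binds. Shown are 22-base windows around the letters GNCGCTG, in capitals, on the plus strand of GRCh38.p14 (RefSeq), for a gene that had no read (PCDHA8), for genes with few (PCDHA1, PCDHA10) and for genes with reads in every library (the others), to show what the arrays share and where they differ.
PCDHA1: cacatgatGTCGCTGtacacca
PCDHA8: cacatgatGTCGCTGtctacca
PCDHA10: caccggatGTCGCTGtcgtcca
PCDHB5: cgcctggtGGCGCTGcaggcta
PCDHB13: cgcgtggtGGCGCTGcaggata
PCDHB16: cgcgtggtGGCGCTGcaggtta
PCDHGA8: ctgtaagcGCCGCTGttcacct
PCDHGA11: ctctaggcGCCGCTGctcacca
PCDHGB4: ctctgggcGCCGCTGttggcca
PCDHGC3: ctctgtgtGCCGCTGtcggcca
The base in the N position is the same within each array here. The windows start at chr5:140786092-140786113 for PCDHA1 and end with chr5:141475886-141475907 for PCDHGC3, and the 7 letters begin 13 to 72 bases before the RefSeq start of each gene. On either strand of the 300-base promoters, GNCGCTG was found in 6 of 13 PCDHA, 12 of 14 PCDHB and 18 of 20 PCDHG entries, 76.6% of the 47 clustered promoters, against 25.3% of all 35116 promoters, 5 of 10 classical cadherins, 1 of 9 delta protocadherins and 1 of 2 other single protocadherins. Within the arrays it was present in 12 of the 14 tested genes that have an entry and in 24 of the 33 untested ones that have one. The letters were chosen after these promoters had been read, so the shares describe them and nothing more.

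PCDHA genes had hardly any reads. The 15 genes together had 9, 12 and 18 counts in VEH, 21, 24 and 14 in SLO 1/2 and 19, 22 and 22 in SLO. PCDHA3, the only one tested, was at 0.445, 0.263 and 0.679 CPM in VEH, 0.738, 0.515 and 0.359 in SLO 1/2 and 0.605, 0.706 and 0.665 in SLO, with a log2 fold change of 0.46 ± 0.39 in SLO (adjusted p = 0.314, edgeR). All groups of PCDHA3 overlapped. PCDHA1 was next, with 0 to 5 counts a library. Counts of these genes come from their variable exons alone, as 43.4% to 78.6% of their exon bases overlap no other gene.

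PCDHB genes, which have no constant exons and of whose exon bases 90.5% to 100% overlap no other gene, were lower with treatment as a sum, a value without a test. The summed level of the 16 genes was 12.6, 10.9 and 10.8 CPM in VEH, 6.98, 6.92 and 7.07 in SLO 1/2 and 7.75, 8.89 and 8.18 in SLO, 0.611 and 0.723 times VEH, with every treated library below every VEH library. PCDHB5, the most abundant, was at 3.37, 3.02 and 2.66 CPM in VEH, 1.36, 1.66 and 1.92 in SLO 1/2 and 2.54, 2.06 and 2.73 in SLO. It fell by 0.87 on the log2 scale in SLO 1/2 (SE 0.20, adjusted p = 0.000686), while in SLO its log2 fold change was -0.30 ± 0.19 (adjusted p = 0.167) and VEH and SLO overlapped. PCDHB13 also fell in SLO 1/2, by 0.86 (SE 0.24, adjusted p = 0.00386). All 5 tested PCDHB genes had log2 fold changes below 0 in both comparisons, between -0.61 and -0.29 in SLO and between -0.87 and -0.47 in SLO 1/2, of which only PCDHB5 and PCDHB13 in SLO 1/2 were called. Among those below the filter, PCDHB16 had 9, 13 and 16 counts in VEH, 6, 8 and 9 in SLO 1/2 and 2, 5 and 2 in SLO, and PCDHB9 had 11, 6 and 14, then 7, 5 and 4, then 7, 3 and 1.

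The PCDHG array was dominated by PCDHGC3, one of its 3 C-type genes, which in neurons are expressed without the random choice seen for the others. PCDHGC3 stood at 86.0, 88.1 and 92.8 CPM in VEH, 113.7, 103.4 and 121.7 in SLO 1/2 and 87.1, 81.9 and 87.7 in SLO. All SLO 1/2 libraries were above the rest, and VEH and SLO overlapped. PCDHGC3 rose by 0.34 ± 0.05 in SLO 1/2 (adjusted p = 1.92e-06), its log2 fold change in SLO was -0.06 ± 0.05 (adjusted p = 0.336), and the doses differed by -0.40 ± 0.05 (adjusted p = 2.80e-07). It was the one clustered gene to rise in either comparison. The other 21 PCDHG genes together had lower sums at both doses, with 28.2, 25.7 and 24.6 CPM in VEH, 20.2, 18.8 and 20.1 in SLO 1/2 and 16.7, 16.1 and 18.2 in SLO, 0.754 and 0.651 times VEH. PCDHGC3 thus held 75.3% to 79.1% of PCDHG counts in VEH, 84.6% to 85.8% in SLO 1/2 and 82.8% to 83.9% in SLO. The exact 95% intervals, which cover counting error only, reached up to 80.7% in VEH and down to 80.9% in SLO.

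PCDHGA11, the next most abundant, was at 10.6, 9.59 and 10.2 CPM in VEH, 8.35, 7.55 and 7.97 in SLO 1/2 and 5.51, 6.71 and 6.52 in SLO, with no overlap between groups. It fell by 0.70 on the log2 scale in SLO (SE 0.11, adjusted p = 3.19e-06) and by 0.35 in SLO 1/2 (SE 0.11, adjusted p = 0.00656). The largest fall among the tested genes of the array was that of PCDHGA8, one of the genes of this array named here after their values were seen, as are the next 3. PCDHGA8 was tested only because it was high in VEH, as its treated libraries all lay below the filter's cutoff. It went from 1.02, 1.18 and 1.201 CPM in VEH to 0.397, 0.515 and 0.599 in SLO 1/2 and 0.424, 0.353 and 0.399 in SLO, a fall by 1.52 in SLO (SE 0.34, adjusted p = 0.000255) and by 1.17 in SLO 1/2 (SE 0.31, adjusted p = 0.00248). PCDHGA6 and PCDHGB7 fell in SLO, by 1.07 and 0.82 (adjusted p = 0.00705 and 0.0331), and PCDHGB4 fell in SLO 1/2 by 0.40 (adjusted p = 0.0382), although its libraries overlapped those of VEH. Without SLO 2 neither PCDHGA6 nor PCDHGB7 was called in SLO, and PCDHGB7 was not called without VEH 1, VEH 3 or SLO 3, by DESeq2 or with library size only either. In limma without a filter neither was called. All 10 tested PCDHG genes had log2 fold changes below 0 in SLO, from -1.52 to -0.06, and 8 of 10 in SLO 1/2. Like PCDHGA8, PCDHGA6, PCDHGB2 and PCDHGB7 passed the cutoff as a whole group only in VEH, so the filter favoured values below 0 for them. Of the PCDHG genes called lower in SLO, only PCDHGA11 passed the cutoff in every group. The -0.06 of PCDHGC3 was 0.02 with library size only.

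Some PCDHG genes below the filter had few reads in the treated libraries. PCDHGA12, the last A-type gene of the array, had 6, 7 and 3 counts in VEH, 4, 6 and 4 in SLO 1/2 and 0 in each SLO library. PCDHGA5 had 8, 11 and 9 counts in VEH, 2, 1 and 1 in SLO 1/2 and 2, 0 and 5 in SLO. PCDHGB3 had 7, 9 and 5, then 1, 1 and 4, then 1, 3 and 1. In these 3 of the 12 PCDHG genes below the filter, picked after their values were seen, the counts in SLO were all below those in VEH. Of all tested genes, 66.7% had no overlap between SLO and VEH, a share not taken for genes below the filter. Others at the same depth, such as PCDHGA1 with 5, 9 and 2 counts in VEH and 5, 7 and 2 in SLO, overlapped, and differences of single reads were not detectable. When every gene with a read was tested, PCDHGA12, PCDHGA5, PCDHGB3, PCDHGB4, PCDHB16, PCDHB9 and PCDHB11 were also called lower in SLO, and CDH1, CDH11, CDH23, CDHR2 and PCDH17 higher, so that 31 of 84 genes were called, where 30.7% of all 32299 genes with a read were.

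**Figure D3:**
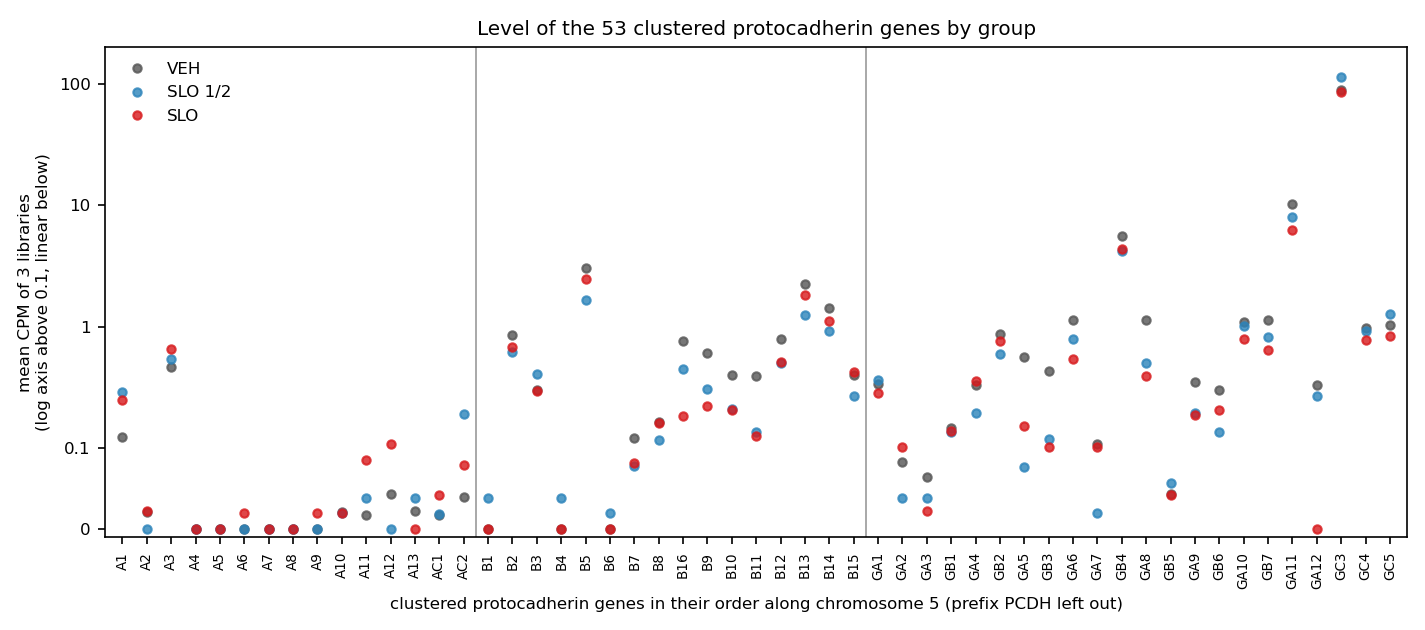
Mean CPM of 3 libraries (y axis, log scale above 0.1 and linear below) for the 53 clustered protocadherin genes in their order along chromosome 5 (x axis), in VEH (grey), SLO 1/2 (blue) and SLO (red), with lines between the arrays. PCDHA genes lie at or near 0, PCDHGC3 stands near 100, and for most expressed PCDHB and PCDHG genes the grey point is the highest.

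**Figure D4:**
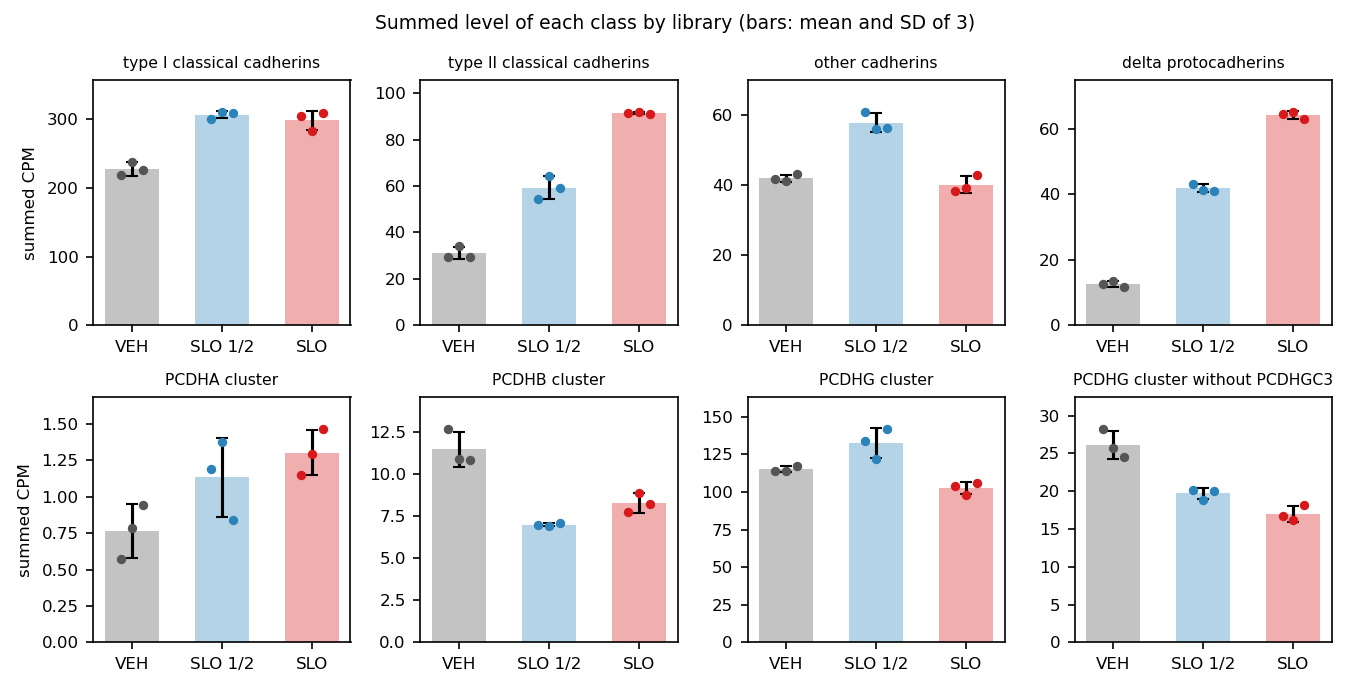
Summed CPM (y axis, each panel on its own scale from 0) of the genes of a class in VEH, SLO 1/2 and SLO, with bars for the mean, lines for the SD and points for the 3 libraries. The means of VEH and SLO are 31.1 and 91.6 for type II genes, 12.6 and 64.2 for delta genes, 11.5 and 8.27 for PCDHB and 26.14 and 17.02 for PCDHG without PCDHGC3.

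Summed over all 94 genes the level was 440.8 ± 11.4 CPM in VEH, 606.8 ± 7.70 in SLO 1/2 and 606.7 ± 17.6 in SLO, values given without a test. The total was thus alike at both doses, while its make-up was not. Type II genes made up 11.4% to 12.8% of the summed TPM in VEH, 13.6% to 16.2% in SLO 1/2 and 19.1% to 21.5% in SLO, and delta protocadherins 1.63% to 1.84%, 4.41% to 4.79% and 6.97% to 7.47%. PCDHG genes went from 31.5% to 33.5% in VEH to 22.1% to 22.9% in SLO. Between the doses 11 of the 32 genes were higher in SLO and 4 lower (46.9% called against 41.1% of all tested genes, 20.8% up and 20.3% down), the 4 being CDH4, CDH13, PCDHGC3 and PCDHGA11. The libraries of the doses did not overlap for 17 genes (51.0% of all tested genes). The dose differences of CDH10, CDHR1, PCDHB5 and PCDHGA11 were not called by DESeq2. Nor were they called without certain libraries, which were SLO 1/2 2, SLO 1/2 3 and SLO 1 for CDH10, SLO 1/2 2, SLO 1/2 3 and SLO 3 for CDHR1, SLO 1/2 1, SLO 1/2 2, SLO 1 and SLO 3 for PCDHB5, and SLO 1/2 1 and SLO 1 for PCDHGA11.

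Other genes of the pathway were taken from lists of partners and regulators. Among all tested genes, 32.9% rose and 32.1% fell in SLO, and 26.7% rose and 25.3% fell in SLO 1/2. Of 20 further members of the superfamily, such as the desmosomal cadherins, the giant FAT cadherins and the calsyntenins, 13 were tested, of which 8 rose and 2 fell in SLO and 6 rose and 4 fell in SLO 1/2. FAT3 rose from 25.6 ± 3.82 to 67.8 ± 5.73 CPM in SLO (log2 fold change 1.41 ± 0.08, adjusted p = 1.32e-15) and the calsyntenin CLSTN2 from 9.25 ± 1.82 to 28.6 ± 0.558 CPM (1.64 ± 0.10, adjusted p = 7.74e-15). Of 15 catenins and other junction partners, among them the nectins, which are adhesion receptors, 12 were tested and 8 rose and 2 fell in SLO, 6 and 2 in SLO 1/2. NECTIN1, NECTIN3 and NECTIN4 were 3 of the 8. VCL (vinculin) rose by 0.79 ± 0.04 (adjusted p = 1.98e-16) and PKP4 fell by 0.63 (SE 0.04, adjusted p = 3.64e-14), while beta-catenin, CTNNB1, stood at 427.2 ± 3.85 CPM with VEH against 434.4 ± 11.9 with SLO (a log2 fold change of 0.02 ± 0.04, adjusted p = 0.600). Of 9 genes of proteases that cut cadherins, with subunits of gamma-secretase included, all were tested. In SLO 5 rose and 2 fell, and in SLO 1/2 none rose and 3 fell. FURIN, which removes the cadherin prodomain, fell by 0.75 (SE 0.07, adjusted p = 3.60e-11) and the gamma-secretase subunit APH1A by 0.38 (SE 0.05, adjusted p = 1.14e-07) in SLO.

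Of 11 transcription factors of the epithelial to mesenchymal transition, many of which repress CDH1, 7 were tested, with 3 up and 3 down in SLO and 2 up and 2 down in SLO 1/2. TCF3 fell by 0.70 (SE 0.04, adjusted p = 4.45e-14) and SNAI2 rose by 0.96 ± 0.07 (adjusted p = 1.96e-12) in SLO. The 16 regulators of clustered protocadherin choice were all tested. They are CTCF, cohesin and its loaders, the cohesin factors WAPL, PDS5A and PDS5B, SMCHD1, and enzymes that add or remove DNA methylation. Of these, 10 fell and 3 rose in SLO while 14 fell and 2 rose in SLO 1/2. Of all tested genes, 32.1% fell and 32.9% rose in SLO, and 25.3% fell and 26.7% rose in SLO 1/2. The cohesin subunits STAG1 and STAG2 fell by 1.26 and 0.64 (SE 0.04 for both, adjusted p = 6.23e-20 and 4.85e-14) in SLO. The median log2 fold change of this list was -0.37 in SLO and -0.35 in SLO 1/2. Its part in the lower sums of PCDHB genes and of PCDHG genes without PCDHGC3 was not tested. Of 14 signalling partners of protocadherins, all tested, 7 rose and 5 fell in SLO and 6 and 5 in SLO 1/2, led by DAAM1, which rose by 1.46 ± 0.05 (adjusted p = 1.74e-19), and by CYFIP2 of the WAVE complex, which rose by 0.76 ± 0.05 (adjusted p = 2.08e-13).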

How the data were processed

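The authors deposited whole-number counts per gene and TPM values, made from polyadenylated RNA. The submitters' processing notes name Trimmomatic 0.38 for trimming, STAR 2.7.1a for alignment and the GRCh38 genome. The annotation release is not given in the sources used here. Lines without a gene (unmapped, multiple, no feature, ambiguous) held 18.02% to 20.06% of reads and were left out; 3.03% to 3.26% were ambiguous, which includes reads on exons shared by clustered genes. Deposited counts divided by TPM gave 1 fixed length per gene. It equalled the GENCODE v44 exon length for all members with a read except CDH5.

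From the counts, edgeR 4.0.16 (R 4.3.3) was run with filterByExpr, which kept 14727 genes, TMM factors of 0.968 to 1.035, and 1 quasi-likelihood fit of the 3 groups over the 9 libraries. p-values were Benjamini-Hochberg adjusted over all tested genes and called below 0.05. CPM are TMM scaled and their errors SD. SE come from the fold change and F statistic. The fit was tested on simulated data with the same spread for every gene. Changes were simulated only in genes with more reads than the lowest members tested here, so it does not cover low-count calls. A gene was a member if protein_coding was among its categories; 49 had no other. Genes were named if their mean log2 CPM was at least 0, they were called against VEH at either dose and changed by more than 1 on the log2 scale, or they led their class in TPM or by smallest p. Each pathway list is represented by its 2 genes of smallest p in SLO. CTNNB1 and further members given by their counts or values were chosen after these were seen. Promoters came from RefSeq, with 74 of 94 members matched and the entry nearest to the deposited 5′ end used. Alternatives were DESeq2 1.42.0, other scalings and filters, limma 3.58.1 on log2(TPM + 1) or log2(TPM + 0.1), a replicate block, and each library left out. Members, lists and comparisons were chosen with earlier results of these data known.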

Additional observations from a re-analysis of the deposited data

Results flagged for a closer look

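CDH13 is listed because its change differed between the doses and turned direction: the log2 fold change against VEH was 0.46 in SLO 1/2 and -0.23 in SLO, and the difference of SLO from SLO 1/2 was -0.70 (adjusted p = 1.78e-10, edgeR).

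PCDHGC3 is listed for the same reason, at 0.34 in SLO 1/2 against VEH and -0.06 in SLO against VEH, the latter not called, and a difference of -0.40 between the doses (adjusted p = 2.80e-07, edgeR). With library size only its value in SLO against VEH was 0.02, so its direction there turned on the scaling.

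A signal outside the protein-coding genes came from PCDH10-DT, a long non-coding transcript divergent to PCDH10 on chromosome 4. PCDH10-DT spans 133075311 to 133149147 (GRCh38), just before the start of PCDH10 at 133149294. It had 1, 0 and 1 counts in VEH, 10, 9 and 12 in SLO 1/2 and 14, 15 and 15 in SLO, and was called higher in SLO (fitted log2 fold change 4.27 ± 0.59, adjusted p = 2.68e-07) and in SLO 1/2 (3.68 ± 0.64, adjusted p = 2.01e-05). PCDH10-DT passed the filter only through treated libraries, where it was high, so its calls lean upwards. The VEH counts are so few that the fitted size depends on the prior count. Of the other non-coding and pseudogene entries with a matching name, none passed the expression filter, and none had more than 13 counts in a library.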

How the results depend on the processing

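The number of members called in SLO against VEH was 20; it moved to 31 with no expression filter and to 13 with at least 10 counts in every library, where 84 and 22 members were tested and 30.7% and 66.9% of all tested genes were called. With each library left out it was 19 to 24 in SLO, 19 to 23 in SLO 1/2 (21 with all) and 12 to 16 between the doses (15 with all). The other alternatives gave 17 to 24 calls in SLO 1/2 and 10 to 16 between the doses. Members counted as expressed numbered 32 by the filter, 21 with a TPM of at least 1 in every library of a group and 84 with at least 1 count. The log2 ratio of summed type II levels to VEH was 1.56 in SLO and 0.93 in SLO 1/2 by CPM but 1.14 and 0.65 by TPM, in which the short CDH24 weighs more, and that of PCDHG in SLO was -0.1661, or -0.09187 with library size only. Library size alone moved the median log2 fold change of all genes by 0.07 in SLO. Of 899 values of 19 named members under alternatives, 865 kept their side of the threshold and 34 were no longer called. None that was called in either fit reversed direction. PCDHGC3 in SLO, not called in either fit, went from -0.06 to 0.02 with library size only. The lost calls were those of CDH18, CDH3 and CDH24 in SLO 1/2 and of CDH10, CDHR1, PCDH1, PCDH9, PCDHB5 and PCDHGA11 between the doses.

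With the replicate block, 20 members were called in SLO, of which 19 shared with the fit without it (CDHR3 was lost and PCDHGB4 gained), 21 in SLO 1/2 and 15 between the doses. Libraries of the same number shared little: correlations of their deviations from the group means were 0.003 to 0.087, and 3 of 9 libraries correlated best with their own number in both other groups, so the numbers were not taken as pairs. Depth limits the 62 members outside the filter, for which counts are given and calls only from the fit without a filter.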
